A study of Mus musculus with 43 samples.

Results

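The type I interferon response genes described here are 39 genes picked by name for their known induction by interferon, out of 57010 genes in the count table. All 39 were matched to a row of the table, and all 39 passed the filter on low counts in the 4 fits whose values are reported here. Type I interferons (interferon-alpha and interferon-beta) are secreted when a cell senses foreign or misplaced DNA or RNA. They bind a receptor made of Ifnar1 and Ifnar2, and the kinases Jak1 and Tyk2 then activate Stat2, which acts with Irf9 to switch on a shared set of antiviral genes. Irf7 is itself induced and drives further interferon production. In infarcted mouse hearts, immune cells that take up the DNA of dying cells are a known source of this response.

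The adult mice carried Q150X, a premature stop codon made in Vegfa by CRISPR/Cas9 and coded HO in the study's design, or were wild type. Vegfa encodes the main growth factor of blood vessels. RNA of whole hearts was sequenced from Q150X and wild-type mice at homeostasis (3 libraries each), 7 days after myocardial infarction (MI, 4 libraries each) and 30 days after MI (4 Q150X and 3 wild-type libraries). Endothelial cells and cardiomyocytes were isolated from Q150X and wild-type hearts 3 days after MI (2 libraries each for endothelial cells, 3 each for cardiomyocytes) and at homeostasis (3 libraries each). Strain, exact age, isolation method and the number of animals behind a library are not stated in the labels, so p-values measure only the spread between libraries, which may be technical. MI is set against homeostasis, since no sham-operated group is among the samples. No promoter or Cre limits the allele to a cell type in the labels.

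Each library held 25035490 to 45243608 counts. Vegfa transcripts were present at 143 to 604 CPM (read counts scaled to library depth) in Q150X and 159.9 to 636 CPM in wild-type hearts, 22.8 to 107 and 70.5 to 95.4 CPM in endothelial cells, and 348 to 846 and 373 to 759 CPM in cardiomyocytes, a level that does not show whether the stop codon is there. Cardiomyocyte libraries had summed cardiomyocyte markers of at least 71982.5 CPM and endothelial libraries at homeostasis summed endothelial markers of at least 7640.2 CPM. The endothelial libraries of day 3 went against their label in part. They held 2288.7 to 5532.6 CPM of macrophage markers against 82.7 to 159 CPM at homeostasis, and they expressed Xist (321 to 842 CPM) with at most 0.32 CPM of Y-linked Ddx3y, whereas all other libraries expressed Ddx3y. Sex therefore cannot be told apart from MI in endothelial cells. The Q150X endothelial library 2 of day 3 held only 730.3 CPM of endothelial markers and 998 CPM of Rag1, a recombinase of lymphocyte precursors. Whole-heart library 1 of each genotype at homeostasis carried atrial Myl7, and wild-type heart library 4 of day 7 carried placental Tpbpa. Counts of members called are given with and without these libraries where they differ, and values of single genes where a call changed without them.

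The promoters show what many of the members have in common in sequence. The interferon-stimulated response element (ISRE) is a DNA site bound by Irf9 with Stat2 and by interferon regulatory factors, and its core was searched as GAAANNGAAA on both strands, counting overlapping matches. In RefSeq promoters of GRCm38.p6 (250 bases before to 50 after the gene start), 28 of the 39 members had an entry and 14 of the 28 (50%) held the core, against 3.99% of 27025 genes. A match is a description of the letters and not evidence of binding. Members with a promoter entry but no match, such as Ifit2, are described below as well. Windows of 100 bases are shown for 6 of the 14 members that held the core, with each match to it in capitals:

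Isg15 (chr4:156200827-156200926, minus strand): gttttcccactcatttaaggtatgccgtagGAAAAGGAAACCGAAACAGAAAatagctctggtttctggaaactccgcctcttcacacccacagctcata
Ifit1 (chr19:34640755-34640854, plus strand): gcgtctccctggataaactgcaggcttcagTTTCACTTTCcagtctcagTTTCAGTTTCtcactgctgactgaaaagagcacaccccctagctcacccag
Ifit3 (chr19:34583343-34583442, plus strand): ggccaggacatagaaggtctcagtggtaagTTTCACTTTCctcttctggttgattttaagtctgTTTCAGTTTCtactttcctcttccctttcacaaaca
Ifit3b (chr19:34607739-34607838, plus strand): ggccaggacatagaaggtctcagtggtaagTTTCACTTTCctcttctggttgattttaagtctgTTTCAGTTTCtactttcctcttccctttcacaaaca
Oas3 (chr5:120777665-120777764, minus strand): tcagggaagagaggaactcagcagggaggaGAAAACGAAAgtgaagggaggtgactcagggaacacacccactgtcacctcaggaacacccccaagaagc
Ifi207 (chr1:173741781-173741880, minus strand): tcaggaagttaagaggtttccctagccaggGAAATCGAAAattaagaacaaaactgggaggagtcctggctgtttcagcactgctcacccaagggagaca

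Isg15 has 3 overlapping cores that begin at -78, -72 and -66 from the gene start, and Ifit1 has 2 at -104 and -85. The windows of Ifit3 and Ifit3b are identical in all 100 bases, and reads of these neighbouring copies may have been split between them by the counting. The members are not spread evenly over the genome. Chromosome 16 holds 6 of them (Rtp4, Parp14, Dtx3l, Parp9, Mx1 and Mx2), chromosome 5 holds the 5 oligoadenylate synthetase genes and chromosome 19 the 4 Ifit genes, by the GENCODE annotation of GRCm38.

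Without injury, the genes had far higher levels in endothelial cells than in cardiomyocytes. Over the whole study, 17 of the 39 members had their highest group mean in endothelial cells of homeostasis, 14 in the endothelial groups of day 3 that went against their label in part, and 8 in hearts of day 30. For 37 the lowest mean was in cardiomyocytes. In wild-type mice at homeostasis, 38 of the 39 were higher in endothelial cells than in cardiomyocytes by edgeR's quasi-likelihood test (adjusted p under 0.05), and none was lower. Most genes differed in this comparison (73.8% of 16585, 39.4% upward and 34.4% downward), so the count alone says little, but the median log2 fold change of the members was 4.17 against 0.17 over all genes tested. With the lowest-count members at their counting bounds, the median was 4.03. Scaling by library size alone moved the median of all genes by 1.33, and 39 members were then higher. Markers of other cells were higher in the endothelial libraries as well. This held for all 12 macrophage and 8 fibroblast markers, and for the 5 neutrophil and 3 plasmacytoid dendritic cell markers tested. It also held for 8 of 10 lymphocyte and 7 of 8 pericyte and smooth muscle markers, and 1 of the latter was lower. The part of these cells in the difference was not tested. Folds below are on the log2 scale, given as the estimate ± its standard error (SE) from the fit.

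The ubiquitin-like modifier Isg15 stood at 62.5, 93.9 and 74.04 CPM in the wild-type endothelial libraries, against 0.59, 0.54 and 0.46 CPM in wild-type cardiomyocytes (7.06 ± 0.23, edgeR adjusted p = 4.8e-10). The transcription factor Irf7 had 95.2, 112 and 112 CPM in endothelial cells, against 4.71, 4.93 and 3.69 CPM in cardiomyocytes (4.46 ± 0.18, edgeR adjusted p = 2.5e-09). Every endothelial library was above every cardiomyocyte library for 38 of the 39 members, against 44.7% of genes with a mean over 0.1 CPM. The exception was Mx1, a GTPase that blocks viral replication, at 0.29, 0.79 and 0.4968 CPM in endothelial cells and 0.35, 0 and 0 CPM in cardiomyocytes (2.11 ± 1.01, edgeR adjusted p = 0.08). Its neighbour Mx2 had 75.2, 75.1 and 59.2 CPM in endothelial cells against 1.41, 1.46 and 1.43 CPM in cardiomyocytes (5.48 ± 0.29). Oas3, a synthetase of the messenger that activates RNase L, had 0 counts in all 6 cardiomyocyte libraries of homeostasis and was at least 14.4-fold higher in wild-type endothelial cells, with 3 counts over the group as the floor. The smallest differences among those that passed were those of Dtx3l (1.50 ± 0.19) and Eif2ak2 (1.62 ± 0.20), an E3 ubiquitin ligase and the RNA-activated kinase PKR.

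**Figure D1:**
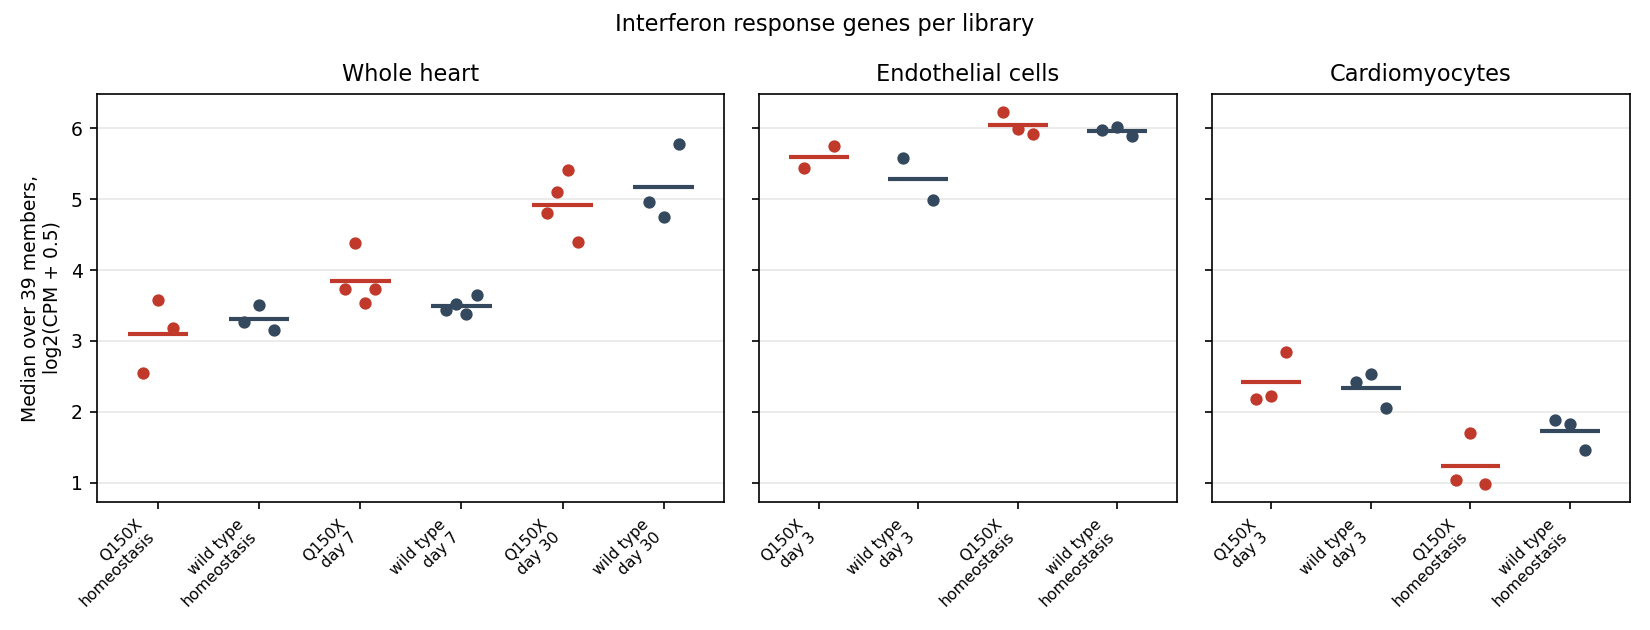
Median of log2(CPM + 0.5) over the 39 genes in each library (points), with the group mean as a line, for whole hearts, endothelial cells and cardiomyocytes of Q150X (red) and wild-type (dark) mice. Libraries of homeostasis endothelial cells lie between 5.90 and 6.23, those of homeostasis cardiomyocytes between 0.98 and 1.88, and hearts of day 30 lie above all other hearts, the lowest at 4.39 against 4.38 in the highest library of day 7.

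At 7 days after MI, whole hearts showed little of this response. In Q150X hearts 9 of the 39 members rose relative to homeostasis and none fell (26.0% of 17845 genes changed, 13.8% upward and 12.3% downward), and in wild-type hearts 1 rose and none fell (13.7% of genes changed, 7.65% upward and 6.07% downward). Ifi207, of the family of DNA-binding p200 proteins, rose in both. It had 27.6, 44.6, 38.4 and 37.9 CPM in Q150X hearts of day 7, against 5.42, 9.92 and 10.3 CPM at homeostasis (2.14 ± 0.28, edgeR adjusted p = 3.9e-05). In wild-type hearts it had 30.98, 20.4, 33.9 and 39.1 CPM at day 7, against 8.26, 8.56 and 5.47 CPM at homeostasis (2.07 ± 0.29, edgeR adjusted p = 1.1e-04). The groups did not overlap in either genotype.

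The other members that passed in Q150X hearts of day 7 were the sensors Zbp1 (2.95 ± 0.86), Ifi204 (2.20 ± 0.43) and Dhx58 (1.19 ± 0.41), with Ifit3 (1.47 ± 0.43), Ifit3b (1.32 ± 0.40), Irf7 (1.35 ± 0.33), Oasl2 (1.06 ± 0.38) and Ifi35 (0.65 ± 0.20). These rises rested largely on 1 library. Q150X heart library 2 of day 7 exceeded all 7 other day 7 hearts for 36 of the 39 members (92.3%), against 12.7% of 13492 genes with a mean over 1 CPM. Its median log2 ratio to the median of the other hearts was 1.01 over the members. The library was already known to stand apart in these values, so both figures describe it and are not an independent test. Without it 3 members rose in Q150X hearts, and the values of Zbp1 (1.24, adjusted p = 0.12), Ifit3 (1.07, adjusted p = 0.062) and Ifit3b (0.96, adjusted p = 0.076) no longer passed the test. Oasl2, Dhx58 and Ifi35 lost their calls as well, which left Irf7, Ifi204 and Ifi207. The same 6 calls were lost without Q150X homeostasis library 1 or 3, and that of Oasl2 also without Q150X library 4 of day 7. Without homeostasis library 1, Oas3 was called as higher (3.40) and Eif2ak2 as lower (-0.78, adjusted p = 0.04997).

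In that library Stat2 stood at 59.6 CPM, against 24.7, 25.04 and 25.2 CPM in the other Q150X hearts and 22.99, 22.2, 18.8 and 23.8 CPM in wild-type hearts of day 7. Zbp1, a sensor of Z-form nucleic acids, stood at 23.9 CPM, against 2.9, 1.504 and 2.598 CPM in the other Q150X hearts and 2.52, 1.47, 0.53 and 3.09 CPM in wild-type hearts. Parp14, an ADP-ribosyltransferase, stood at 87.7 CPM, against 33.04, 23.4 and 28.4 CPM in the other Q150X hearts and 32.8, 31.4, 26.1 and 28.7 CPM in wild-type hearts. The 3 members that it did not lead were Oasl1, Mx1 and Mx2. Genes outside the list moved with them in the same library. Interferon-gamma (Ifng) had 1.25 CPM there and at most 0.06 CPM in the other 7 hearts, and the interferon-gamma-induced chemokine Cxcl9 had 86.4 CPM against 1.67 to 7.65 CPM. Its macrophage markers summed to 1458.5 CPM against 605.5 to 1069.6 CPM in the other Q150X hearts and 390.6 to 784.3 CPM in wild-type hearts, and its neutrophil markers to 52.1 CPM against at most 11.1 CPM in the other 7. The part of these cells in the result was not tested. In bulk RNA, a change in the number of cells of a type and a change in RNA per cell cannot be told apart.

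**Figure D2:**
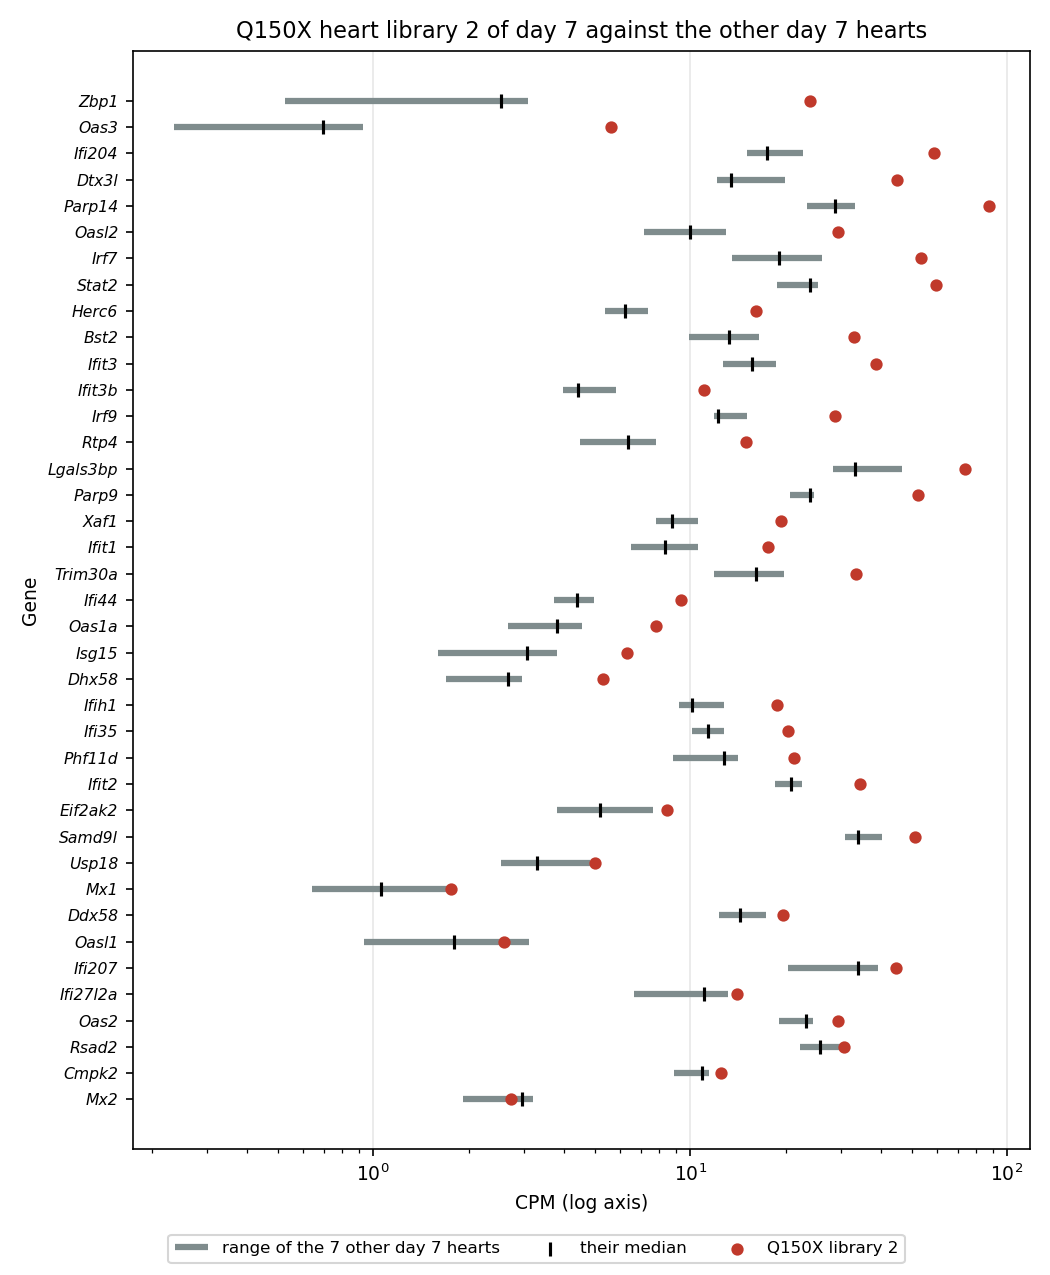
CPM (log axis) of each of the 39 genes in Q150X heart library 2 of day 7 (red), beside the range (grey bar) and median (tick) of the other 7 whole-heart libraries of that day. The red point lies to the right of the grey bar for 36 genes, and the largest ratios are those of Zbp1 and Oas3.

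At 30 days after MI nearly all of the genes were raised in both genotypes. In Q150X hearts 34 of the 39 members rose relative to homeostasis and none fell (29.7% of 17845 genes changed, 15.6% upward and 14.2% downward). In wild-type hearts 32 rose and none fell (8.93% of genes changed, 5.45% upward and 3.49% downward). The median log2 fold change of the members was 1.94 in Q150X and 2.27 in wild-type hearts, against -0.03 and -0.02 over all genes. Without each library in turn, 31 of the 34 calls in Q150X hearts and 22 of the 32 in wild-type hearts held. Mx1, Mx2 and Parp9 lost theirs in Q150X hearts, also without homeostasis library 1. In wild-type hearts Stat2, Oas3, Mx1, Ifi44, Ifih1, Zbp1, Cmpk2, Parp9, Eif2ak2 and Phf11d did, 9 of them without homeostasis library 3 and 9 without day 30 library 3, each of which left 23 calls. The 32 genes that rose in wild-type hearts were all among the 34 of Q150X hearts. The 2 comparisons share no library but are not independent. They come from 1 fit with 1 estimate of the spread, and same-numbered homeostasis hearts of the 2 genotypes deviated together. Every library of day 30 was above every library of homeostasis for 33 members in Q150X hearts (17.3% of genes) and for 36 in wild-type hearts (15.8% of genes).

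All 3 transcription factors of the list rose in both genotypes. Irf7 had 152, 154, 166 and 77.8 CPM in Q150X hearts of day 30, against 11.4, 15.2 and 8.82 CPM at homeostasis (3.53 ± 0.37, edgeR adjusted p = 2.8e-05). Wild-type hearts had 138, 134 and 191 CPM at day 30, against 15.6, 13.6 and 11.2 CPM (3.51 ± 0.38, edgeR adjusted p = 5.1e-05). The lowest heart of day 30, Q150X library 4, was still above every heart of homeostasis and day 7. Irf9, the DNA-binding partner of Stat2, rose by 1.94 ± 0.26 in Q150X and 1.93 ± 0.27 in wild-type hearts. Stat2 itself had 66.5, 71.4, 90.1 and 42.9 CPM in Q150X hearts of day 30, against 13.6, 33.01 and 27.4 CPM at homeostasis (1.45 ± 0.33, edgeR adjusted p = 0.0031). In wild-type hearts Stat2 had 60.2, 50.7 and 80.8 CPM, against 21.4, 30.7 and 29.3 CPM (1.23 ± 0.34, edgeR adjusted p = 0.032). The wild-type call was lost without any 1 of the 3 homeostasis libraries (1.09, adjusted p = 0.055, 1.33, adjusted p = 0.085 and 1.28, adjusted p = 0.10) and without day 30 library 1 (1.27, adjusted p = 0.056) or 3 (1.02, adjusted p = 0.14).

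The 6 sensors of RNA and DNA rose in both genotypes. Zbp1 rose by 4.17 ± 0.90 in Q150X hearts, with 18.5, 20.5, 26.5 and 7.38 CPM at day 30 against 1.12, 1.31 and 0.56 CPM at homeostasis. In wild-type hearts it rose by 3.69 ± 0.90, with 10.99, 14.03 and 19.6 CPM against 1.42, 1.42 and 0.58 CPM, a call lost without homeostasis library 2 (3.88, adjusted p = 0.075) or 3 (3.38, adjusted p = 0.10) or day 30 library 3 (3.44, adjusted p = 0.063). The groups did not overlap in either genotype. Among the helicases that detect viral RNA, Dhx58 (LGP2) rose by 3.02 ± 0.43 in Q150X and 2.41 ± 0.44 in wild-type hearts. Ddx58 (RIG-I) rose by 1.46 ± 0.23 and 1.26 ± 0.24, and Ifih1 (MDA5) by 1.27 ± 0.30 and 1.26 ± 0.31, in the same order of genotypes. Ifi204 rose by 2.63 ± 0.44 in Q150X and 2.34 ± 0.45 in wild-type hearts.

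The 4 Ifit genes, whose proteins bind foreign RNA, rose in both genotypes. Ifit1 had 62.97, 83.95, 92.1 and 34.7 CPM in Q150X hearts of day 30, against 2.31, 9.47 and 5.22 CPM at homeostasis (3.58 ± 0.56, edgeR adjusted p = 2.6e-04). In wild-type hearts it had 87.05, 46.6 and 224 CPM, against 4.37, 8.04 and 5.43 CPM (4.32 ± 0.59, edgeR adjusted p = 3.1e-04). Every heart of day 30 was above every heart of homeostasis and day 7. Ifit3 had 87.98, 112, 135 and 50.2 CPM in Q150X hearts, against 8.75, 9.304 and 6.41 CPM at homeostasis (3.55 ± 0.47), and 68.5, 69.04 and 233 CPM in wild-type hearts, against 9.09, 12.2 and 8.38 CPM (3.64 ± 0.48). Ifit2 rose by 1.70 ± 0.36 in Q150X and 2.27 ± 0.38 in wild-type hearts.

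Of the 5 oligoadenylate synthetase genes, 5 rose in Q150X and 4 in wild-type hearts. Oas3 had 7.81, 9.07, 11.7 and 3.32 CPM in Q150X hearts of day 30, against 0.72, 0.36 and 0 CPM at homeostasis (4.44 ± 0.93, edgeR adjusted p = 0.0019). Wild-type hearts had 3.68, 4.54 and 7.82 CPM, against 0.36, 0.22 and 0.16 CPM (4.40 ± 0.98, edgeR adjusted p = 0.011), a call lost without homeostasis library 2 (4.33, adjusted p = 0.062) or 3 (4.16, adjusted p = 0.07). Groups did not overlap in either genotype, at a level near the limit of detection in uninjured hearts. Oasl2, a family member with a ubiquitin-like tail, had 67.3, 97.2, 92.9 and 37.5 CPM in Q150X hearts, against 5.97, 11.7 and 5.57 CPM (3.24 ± 0.41), and 46.5, 57.6 and 73.8 CPM in wild-type hearts, against 11.9, 10.9 and 6.83 CPM (2.58 ± 0.41). Oas2 passed in Q150X (1.70 ± 0.40) and not in wild-type hearts (1.12 ± 0.42, edgeR adjusted p = 0.091), and the interaction between MI and genotype did not pass for it. Without the libraries that stand apart, Oas2 passed in wild-type hearts as well (0.83).

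Both Mx genes rose in both genotypes, with a wide spread between libraries. Mx1 had 5.83, 3.12, 7.12 and 0.83 CPM in Q150X hearts of day 30, against 0.65, 1.04 and 0.42 CPM at homeostasis (2.56 ± 0.79, edgeR adjusted p = 0.02). Q150X library 4 overlapped the homeostasis hearts. In wild-type hearts it had 2.99, 1.97 and 24.8 CPM, against 0.58, 0.52 and 0.31 CPM (4.37 ± 0.88, edgeR adjusted p = 0.0054). The wild-type value was set by library 3, without which it was 2.37, adjusted p = 0.055 and missed the threshold. Mx2 rose by 1.67 ± 0.52 in Q150X and 3.33 ± 0.58 in wild-type hearts. In Q150X hearts the Mx1 call was lost without homeostasis library 1 (2.52, adjusted p = 0.054) or 3 (2.29, adjusted p = 0.089) or day 30 library 3 (2.18, adjusted p = 0.059), and that of Mx2 without homeostasis library 1 (1.30, adjusted p = 0.077) or day 30 library 2 (1.49, adjusted p = 0.056) or 3 (1.49, adjusted p = 0.061).

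In the Isg15 pathway, the modifier and its protease Usp18, which also brakes the receptor, rose in both genotypes. Isg15 had 23.9, 32.3, 41.9 and 15.3 CPM in Q150X hearts of day 30, against 1.34, 3.59 and 1.93 CPM at homeostasis (3.62 ± 0.49, edgeR adjusted p = 9.2e-05). Wild-type hearts had 33.4, 21.5 and 79.6 CPM, against 3.82, 3.46 and 3.65 CPM (3.61 ± 0.50, edgeR adjusted p = 2.9e-04). Groups were far apart for both genes. Usp18 had 22.1, 28.04, 35.4 and 14.1 CPM in Q150X hearts, against 2.21, 4.701 and 2.52 CPM (2.97 ± 0.37), and 20.3, 20.1 and 37.9 CPM in wild-type hearts, against 2.15, 2.57 and 3.26 CPM (3.29 ± 0.38). Herc6, the ligase that attaches Isg15 to proteins in mice, did not pass (1.10 ± 0.59 in Q150X and 0.75 ± 0.62 in wild-type hearts).

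Of the 5 membrane and metabolic effectors 3 rose in each genotype. Bst2 (tetherin), which holds budding virus at the cell surface, had 93.8, 100.1, 158 and 65.2 CPM in Q150X hearts of day 30, against 17.2, 19.3 and 14.6 CPM at homeostasis (2.60 ± 0.33). In wild-type hearts it had 96.1, 82.9 and 118 CPM, against 22.7, 18.2 and 15.8 CPM (2.38 ± 0.33). Eif2ak2 and Cmpk2 were the other two that rose in both. Rsad2 (viperin), which makes a chain-terminating nucleotide, behaved differently. It had 18.6, 31.2, 28.2 and 21.5 CPM in Q150X hearts of day 30, against 6.004, 27.8 and 22.1 CPM at homeostasis (0.41 ± 0.48, edgeR adjusted p = 0.54). Wild-type hearts had 32.97, 24.6 and 119 CPM, against 13.2, 31.7 and 17.7 CPM (1.49 ± 0.51, edgeR adjusted p = 0.072). The wild-type library of 24.6 CPM lay within the homeostasis range, that of 32.97 CPM just above it and library 3 far above it. Samd9l also did not pass in either genotype.

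Of the PARP and TRIM group, Parp9 rose in both genotypes (0.98 ± 0.29 in Q150X and 0.99 ± 0.30 in wild-type hearts), and its partner ligase Dtx3l (0.55 ± 0.34 and 0.99 ± 0.37) and Parp14 (0.78 ± 0.43 and 1.26 ± 0.46) passed in neither. The Parp9 call was lost without Q150X homeostasis library 1 (0.75, adjusted p = 0.065) or day 30 library 2 (0.86, adjusted p = 0.054), and in wild-type hearts without any 1 of the 6 libraries (0.76 to 1.20, adjusted p of 0.057 to 0.18). Trim30a passed in Q150X hearts (1.49 ± 0.38) and not in wild-type hearts (1.08 ± 0.40, edgeR adjusted p = 0.087). The 7 remaining induced genes all rose in both. Rtp4, a chaperone of membrane receptors, had 48.3, 57.02, 60.3 and 27.8 CPM in Q150X hearts of day 30, against 4.702, 6.95 and 5.78 CPM (3.05 ± 0.34), and 49.3, 38.5 and 75.2 CPM in wild-type hearts, against 6.88, 6.59 and 6.48 CPM (3.02 ± 0.35). Ifi27l2a had 138, 132, 218 and 79.5 CPM in Q150X hearts, against 15.9, 6.11 and 2.91 CPM (4.07 ± 0.58), and 82.3, 122 and 112 CPM in wild-type hearts, against 28.4, 8.08 and 6.44 CPM (2.87 ± 0.56). The groups did not overlap for either gene. Lgals3bp, a secreted glycoprotein that binds galectins, rose by 2.69 ± 0.28 in Q150X and 2.74 ± 0.29 in wild-type hearts.

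**Figure D3:**
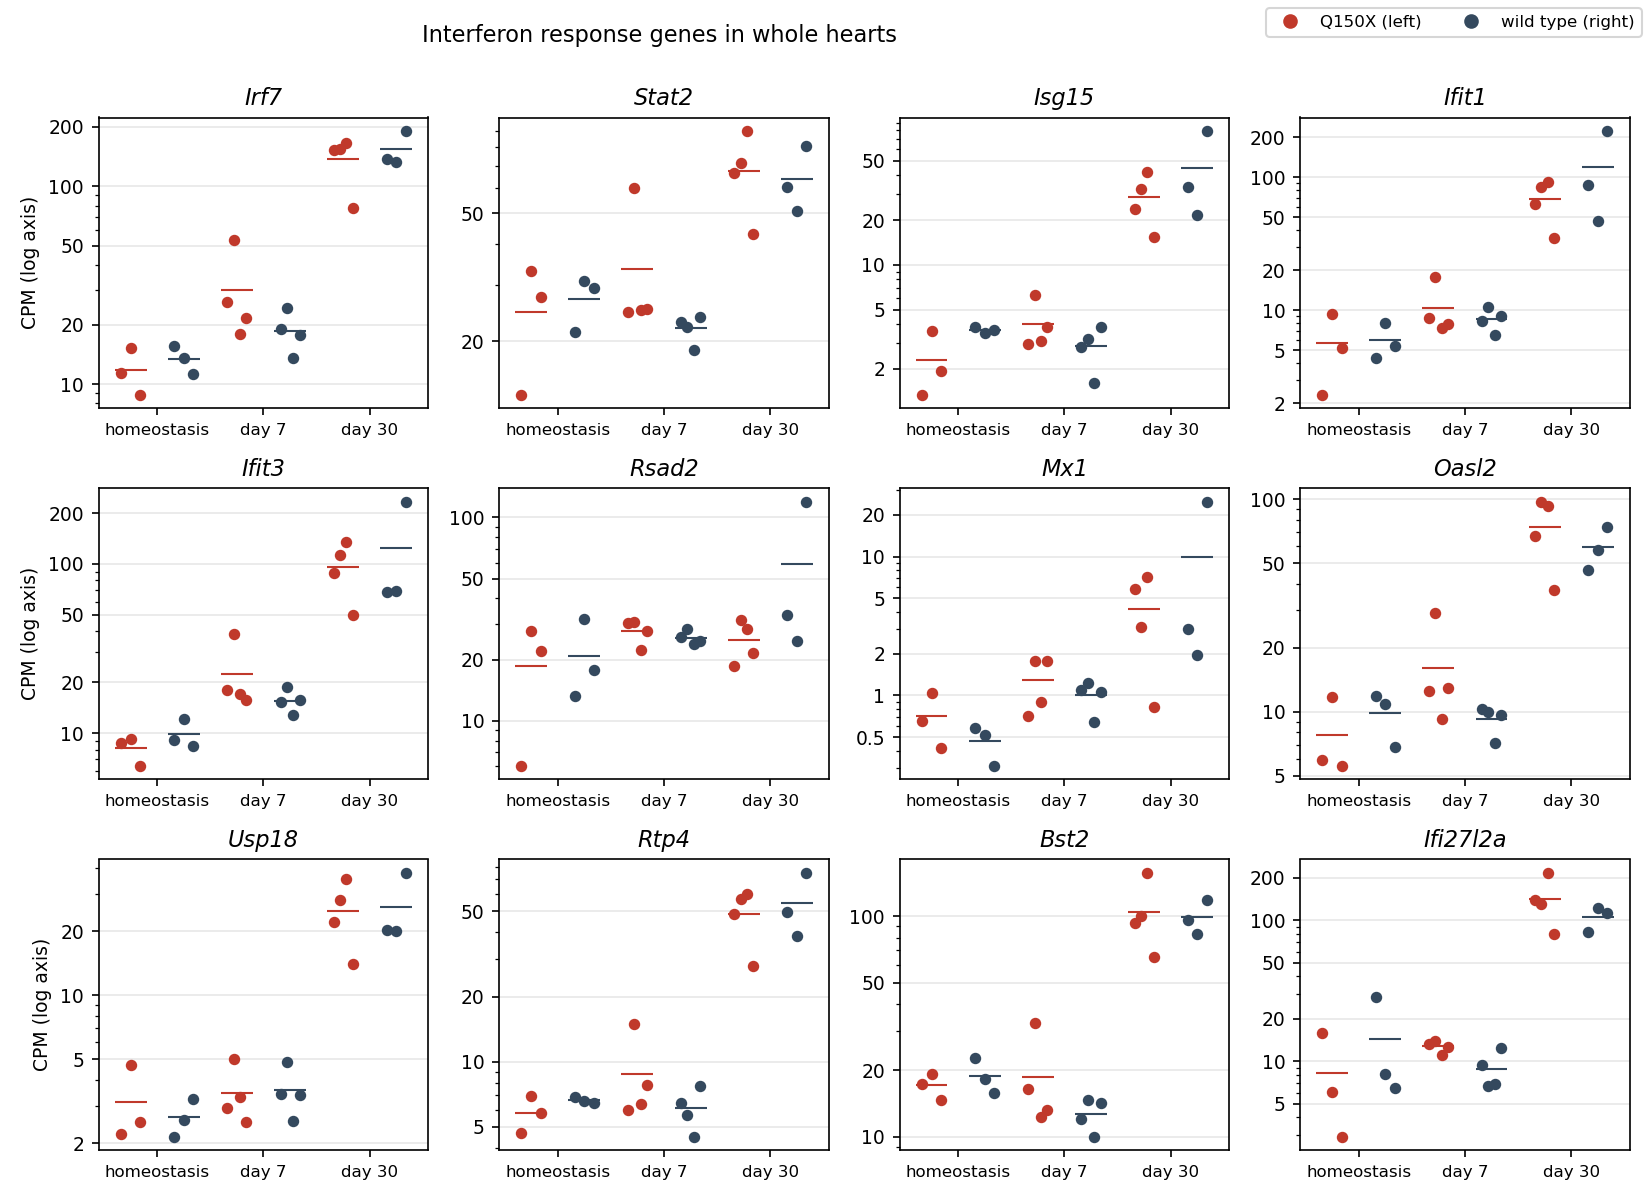
CPM (log axis) of 12 interferon response genes in each whole-heart library (points) with the group mean (line), at homeostasis, day 7 and day 30, Q150X (red) left of wild type (dark). All panels except Rsad2 and Mx1 show day 30 hearts above homeostasis hearts in both genotypes, and 1 red point of day 7, library 2, stands above its group in most panels.

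The hearts of one group differed together. Among the 3 wild-type hearts of day 30, library 3 had the highest value for 38 of the 39 members, and its summed member level was 2950.7 CPM against 1580.5 CPM in the lowest. Among the 4 Q150X hearts of day 30, library 4 had the lowest value for 38, with a sum of 1178.9 CPM against 2401.3 CPM in the highest. Leukocyte markers moved with MI in the same hearts. Macrophage markers summed to 822.4 to 2204.8 CPM in Q150X hearts of day 30, the lowest being library 4, against 240.8 to 458.9 CPM at homeostasis. In wild-type hearts they summed to 760.3 to 1166.5 CPM at day 30, against 322.1 to 489.9 CPM at homeostasis. Of the 12 macrophage markers 11 rose in Q150X and 7 in wild-type hearts, as did 7 and 5 of 8 neutrophil markers, 8 and 0 of 10 lymphocyte markers and 2 and 1 of the 3 plasmacytoid dendritic cell markers tested, Q150X first. The order of the libraries did not follow these sums throughout. Q150X library 4, lowest for 38 members, had the highest neutrophil sum of its group (59.9 CPM, against 18.4 to 42.1 CPM in the others). Wild-type library 2, lowest for 29 members, had a macrophage sum of 1125.7 CPM, close to the 1166.5 CPM of library 3, and library 1 had the lowest. Their part in the rise of the interferon response genes was not tested.

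Other genes of the pathway were taken from fixed lists. The receptor chain Ifnar2 rose in hearts of day 30 of both genotypes (0.90 ± 0.18 in Q150X, 1.21 ± 0.19 in wild type), 1 of 2 called among the 6 ligands and receptors tested in Q150X and the only one in wild-type hearts. Ifnb1, the interferon-beta gene, was not tested there because of low counts and reached at most 0.15 CPM in any heart. Of the 10 signal transducers, 5 rose in Q150X and 4 in wild-type hearts, among them Irf1 (1.65 ± 0.61 and 3.56 ± 0.68), Q150X first. Of the 12 nucleic acid sensing genes, 4 rose and 1 fell in Q150X hearts, and 2 rose in wild-type hearts. Tmem173, which encodes STING, rose in both (1.54 ± 0.41 and 2.60 ± 0.44). Of 9 brakes on the pathway tested, 6 rose in Q150X and 5 in wild-type hearts, with Socs3 at 2.56 ± 0.55 and 4.99 ± 0.63. Of the 7 interferon-induced chemokines, 4 rose in Q150X and 6 in wild-type hearts. Cxcl10 had 3.66, 16.3, 8.27 and 9.61 CPM in Q150X hearts of day 30, against 0.29, 0.98 and 0.18 CPM at homeostasis (4.25 ± 1.53). In wild-type hearts it had 92.5, 14.2 and 355 CPM, against 0.62, 0.2979 and 0.19 CPM (8.67 ± 1.78). Its call was lost without each homeostasis library and without day 30 library 2, 3 or 4 in Q150X hearts, and without homeostasis library 2 or 3 in wild-type hearts.

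Between genotypes, none of the 39 members passed edgeR's test in whole hearts at any time. DESeq2 and limma voom each called 1 member at day 30, Ifi207, and 0 at the other times, and no member had an unadjusted p under 0.05 at homeostasis. At homeostasis and day 7 no gene of the 17845 passed (0%), and at day 30 0.443% did. At day 30 the median difference of the members, Q150X minus wild type, was -0.12, against 0.04 over all genes, and 4 members had an unadjusted p under 0.05. The smallest adjusted p was that of Ifi207, with 27.2, 28.9, 25.7 and 16.8 CPM in Q150X hearts against 43.01, 34.8 and 65.1 CPM in wild-type hearts (-0.95 ± 0.26, edgeR adjusted p = 0.12). It was the only member whose genotypes did not overlap at day 30 (9.47% of genes were lower without overlap). Mx2 (-1.31 ± 0.48) and Rsad2 (-1.24 ± 0.47) were next, and without wild-type library 3 they were -0.17, adjusted p = 0.92 and -0.20, adjusted p = 0.89. Irf7 differed by -0.16 ± 0.31, Irf9 by -0.12 ± 0.24 and Stat2 by 0.09 ± 0.31. Lymphocyte markers summed to 13.2 to 19.5 CPM in Q150X hearts of day 30, against 3.90 to 7.24 CPM in wild-type hearts. At day 7, 37 of the 39 differences were above 0 with a median of 0.49, and 9 had an unadjusted p under 0.05, in a group that includes the Q150X library 2 described above. No member passed the test of a difference between genotypes in the response to MI at either day (edgeR interaction, 0 of 39 called and 0% of genes, with 2 members at an unadjusted p under 0.05 each day, and 0 called by DESeq2 or voom).

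In endothelial cells 3 days after MI the genes moved in both directions. In Q150X cells 10 of the 39 members rose and 10 fell (33.8% of 18223 genes changed, 18.7% upward and 15.1% downward), and in wild-type cells 6 rose and 5 fell (9.52% of genes changed, 6.71% upward and 2.81% downward). Their median log2 fold changes were -0.17 and -0.18, against 0.07 and 0.01 over all genes, Q150X first. The 6 that rose in wild-type cells, Oas3, Mx1, Ifi27l2a, Zbp1, Dhx58 and Lgals3bp, rose in Q150X cells as well, and Ifit1, Mx2 and Isg15 fell in both. Without overlap, 12 members were higher and 15 lower in Q150X cells (23.7% and 28.2% of genes), and 9 were higher and 17 lower in wild-type cells (26.3% and 37.0% of genes).

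Oas3 had 28.99 and 54.5 CPM in Q150X cells of day 3, against 0.48, 0.17 and 0.28 CPM at homeostasis (7.06 ± 0.65, edgeR adjusted p = 3.5e-04). In wild-type cells it had 20.4 and 6.804 CPM, against 0.17, 0.43 and 0.36 CPM (5.50 ± 0.62, edgeR adjusted p = 0.0018). Nearly absent at homeostasis, it was clearly present in all 4 libraries of day 3. Mx1 had 7.19 and 19.9 CPM in Q150X cells of day 3, against 0.91, 0.73 and 0.55 CPM (4.17 ± 0.51), and 7.64 and 4.39 CPM in wild-type cells, against 0.29, 0.79 and 0.4968 CPM (3.63 ± 0.51). Ifi27l2a had 46.5 and 72.5 CPM in Q150X cells, against 7.74, 3.87 and 3.48 CPM (3.56 ± 0.40), and 40.7 and 23.3 CPM in wild-type cells, against 3.603, 4.28 and 5.02 CPM (3.02 ± 0.39). The groups did not overlap for any of the 3.

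The falls were clearest for Ifit1, Mx2 and Isg15. Ifit1 had 32.5 and 38.8 CPM in Q150X cells of day 3, against 302, 248 and 178 CPM at homeostasis (-2.75 ± 0.34, edgeR adjusted p = 0.0013). In wild-type cells it had 46.3 and 28.5 CPM, against 181, 259 and 175 CPM (-2.33 ± 0.33, edgeR adjusted p = 0.0047), a call lost without day 3 library 2 (-2.03, adjusted p = 0.058). Mx2 had 12.5 and 15.97 CPM in Q150X cells, against 86.9, 76.8 and 59.9 CPM (-2.38 ± 0.27), and 16.6 and 9.902 CPM in wild-type cells, against 75.2, 75.1 and 59.2 CPM (-2.28 ± 0.27). The 2 Mx genes, neighbours on chromosome 16, thus moved in opposite directions. Isg15 had 34.8 and 27.8 CPM in Q150X cells, against 116, 82.1 and 67.4 CPM (-1.46 ± 0.35), and 32.5 and 19.2 CPM in wild-type cells, against 62.5, 93.9 and 74.04 CPM (-1.45 ± 0.35). Rtp4 had 37.4 and 47.7 CPM in Q150X cells, against 80.7, 62.4 and 68.7 CPM (-0.72 ± 0.25, edgeR adjusted p = 0.052), and 33.8 and 18.6 CPM in wild-type cells, against 55.1, 64.6 and 62.8 CPM (-1.09 ± 0.25, edgeR adjusted p = 0.03). Ifit2 (-1.82 ± 0.32), Phf11d (-1.47 ± 0.48), Cmpk2 (-1.30 ± 0.32) and Rsad2 (-1.14 ± 0.35) also fell in Q150X cells. In wild-type cells these were -1.15 ± 0.31, -0.51 ± 0.46, -0.59 ± 0.31 and -1.055 ± 0.34 in the same order, and none passed with all libraries. Without Q150X library 2 the wild-type values were -1.16 for Ifit2, -0.52 for Phf11d and -1.06 for Rsad2. The interaction between MI and genotype passed for none of these genes. Ifi207 rose in Q150X cells (1.77 ± 0.59) through library 1, and without it the value was -0.13, adjusted p = 0.67.

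Irf7 did not pass in either genotype, with 166 and 228 CPM in Q150X cells of day 3 against 153, 109 and 93.8 CPM (0.74 ± 0.36), and 188 and 76.8 CPM in wild-type cells against 95.2, 112 and 112 CPM (0.44 ± 0.36). Stat2 fell in Q150X cells (-0.84 ± 0.22) and did not pass in wild-type cells (-0.42 ± 0.21). Irf9 fell in wild-type cells (-0.93 ± 0.23) and did not pass in Q150X cells (-0.63 ± 0.22). Without Q150X library 2 the values were -0.43 for Stat2 in wild-type cells and -1.03 for Irf9 in Q150X cells. With 2 libraries per group at day 3, many of these calls were fragile. Of the 20 calls in Q150X cells, 10 held without each library in turn (Isg15, Ifit1, Ifit2, Oas3, Mx1, Mx2, Ifi27l2a, Dhx58, Zbp1 and Trim30a), and those of Stat2, Rsad2, Oas1a, Ifi44, Cmpk2, Parp14, Ifi204, Ifi207, Lgals3bp and Phf11d did not. Of the 11 calls in wild-type cells, 4 (Oas3, Mx1, Ifi27l2a and Mx2) held without each library in turn. Leaving out 1 homeostasis library of the same genotype gave 5 calls in wild-type cells and 12 or 13 in Q150X cells. Wild-type library 1 was above wild-type library 2 of day 3 for all 39 members. Without Q150X library 2, the one with few endothelial markers, all 20 calls of Q150X cells were kept and 3 were added. That fit has 1 Q150X library of day 3, which is assumed to vary like the other groups. All endothelial groups share 1 estimate of the spread, and more members were called in wild-type cells too in that fit, as given below. The values without it were 6.68 for Oas3, 3.42 for Mx1, 3.34 for Ifi27l2a, -2.77 for Ifit1, -2.45 for Mx2 and -1.22 for Isg15 (edgeR adjusted p = 0.047 for Isg15).

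Markers of other cells moved in these libraries. All 12 macrophage markers rose in both genotypes, and endothelial markers summed to 730.3 to 2917.7 CPM in Q150X cells of day 3 against 7640.2 to 8643.0 CPM at homeostasis, and to 4780.1 to 4786.4 CPM in wild-type cells against 8255.1 to 9154.1 CPM. Neutrophil markers rose too (8 of 8 in Q150X and 7 of 8 in wild-type cells), with sums of 67.6 to 1123.2 CPM in Q150X and 419.6 to 504 CPM in wild-type cells of day 3, against at most 4.06 CPM at homeostasis. Of the 10 lymphocyte markers 8 rose in Q150X and 0 in wild-type cells, and their sum was 1319.5 CPM in Q150X library 2, against 31.1 CPM in Q150X library 1 and at most 25.03 CPM in wild-type cells of day 3. All 8 pericyte and smooth muscle markers fell in Q150X cells and none passed in wild-type cells. Their part in either the rises or the falls was not tested. Cxcl10 had 73.3 and 9.92 CPM in Q150X cells of day 3, against 206, 186 and 183 CPM (-2.08 ± 0.73), and 37.5 and 31.6 CPM in wild-type cells, against 150.2, 239 and 197 CPM (-2.38 ± 0.74), and it passed in neither. Irf1 fell in both (-3.25 ± 0.37 in Q150X and -3.81 ± 0.39 in wild-type cells), and Irf5, a factor of immune cells, rose in both (4.69 ± 0.49 and 3.85 ± 0.47). Without Q150X library 2 these were -2.85 for Irf1 and 5.31 for Irf5 in Q150X cells. Ifnb1 had 1.05 and 0 CPM in Q150X and 0.23 and 0.3991 CPM in wild-type cells of day 3, and its change passed in neither genotype.

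**Figure D4:**
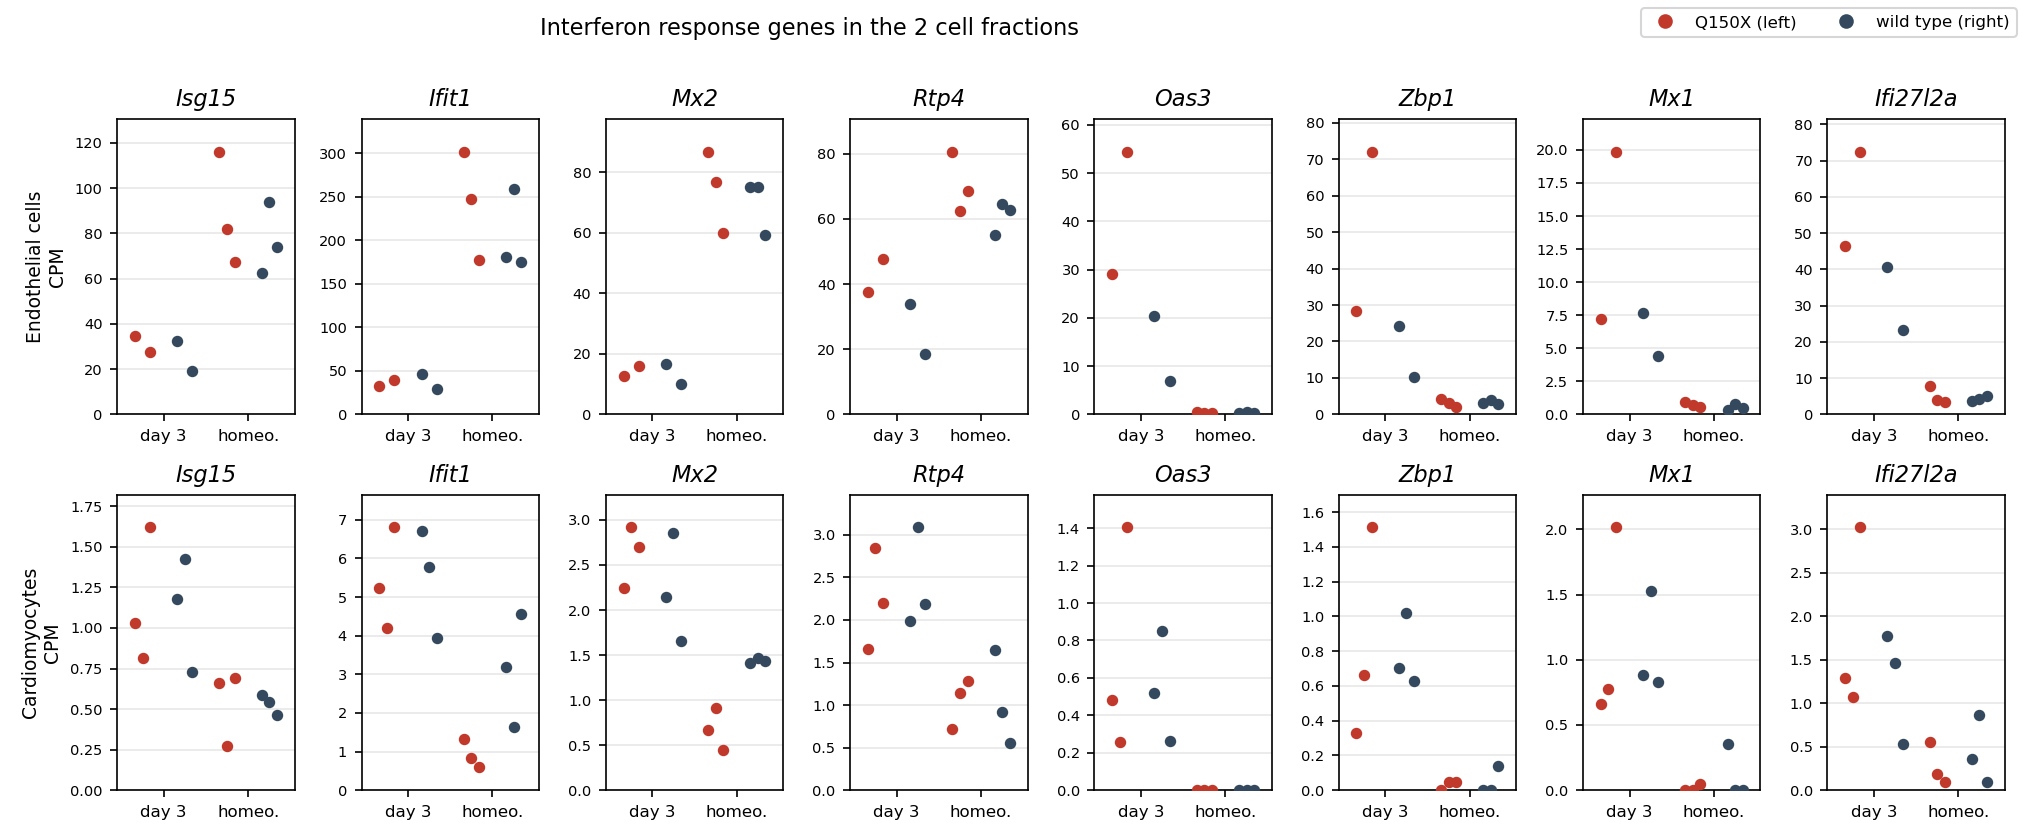
CPM of 8 interferon response genes in each library of endothelial cells (upper row) and cardiomyocytes (lower row), at day 3 after MI (left in each panel) and homeostasis (right), Q150X (red) and wild type (dark), each axis from 0. In endothelial cells Isg15, Ifit1, Mx2 and Rtp4 lie lower at day 3 and Oas3, Zbp1, Mx1 and Ifi27l2a higher, while in cardiomyocytes most libraries of day 3 lie at or above those of homeostasis, at levels of a few CPM.

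In cardiomyocytes 3 days after MI every member that passed the test was higher. In Q150X cells 23 of the 39 members rose and none fell (27.0% of 15169 genes changed, 14.9% upward and 12.1% downward), and in wild-type cells 7 rose and none fell (17.4% of genes changed, 10.1% upward and 7.22% downward). Their median log2 fold change was 1.12 in Q150X and 0.44 in wild-type cells, against -0.00 and -0.01 over all genes. Without overlap, 28 members were higher in Q150X cells (23.7% of genes) and 16 in wild-type cells (23.0% of genes). Ifi204, Ifi207, Lgals3bp, Mx1, Oas3 and Zbp1 rose in both genotypes.

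Ifi207 had 4.02, 5.61 and 11.3 CPM in Q150X cells of day 3, against 0.28, 0.18 and 0.1968 CPM at homeostasis (4.89 ± 0.48, edgeR adjusted p = 1.4e-05). In wild-type cells it had 6.24, 7.53 and 4.21 CPM, against 1.41, 1.08 and 0.83 CPM (2.36 ± 0.39, edgeR adjusted p = 8.6e-04). The groups were far apart, and at homeostasis every Q150X library lay below every wild-type library. Oas3 had 0.48, 0.26 and 1.404 CPM in Q150X and 0.52, 0.85 and 0.27 CPM in wild-type cells of day 3, and no count at homeostasis in either genotype. With 3 counts over the group as the floor it was at least 16.5-fold higher in Q150X and at least 12.2-fold higher in wild-type cells. Mx1 had 0.66, 0.78 and 2.02 CPM in Q150X cells, against 0, 0 and 0.049 CPM, a pooled ratio of 79.7 (exact 95% counting interval 14 to 3.18e+03). In wild-type cells Mx1 had 0.89, 1.53 and 0.83 CPM, against 0.35, 0 and 0 CPM (3.17 ± 0.94, edgeR adjusted p = 0.029), a call lost without homeostasis library 2 (2.61, adjusted p = 0.087) or 3 (2.53, adjusted p = 0.10) or day 3 library 1 (3.29, adjusted p = 0.064) or 2 (2.85, adjusted p = 0.094). These intervals cover counting error only.

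Zbp1 was also nearly absent at homeostasis, and its pooled ratio was 29 (exact 95% counting interval 7.72 to 244) in Q150X cells and 17.6 (5.77 to 87.4) in wild-type cells. Dhx58 passed in wild-type cells (2.69 ± 0.65), but not without day 3 library 1 (2.31, adjusted p = 0.054), and Ifi204 (2.65 ± 0.63) not without homeostasis library 3 (2.77, adjusted p = 0.051). All 4 Ifit genes rose in Q150X cells and none passed in wild-type cells, and for none did the interaction between MI and genotype pass. Ifit3 narrowly missed the threshold in wild-type cells (0.82 ± 0.27, edgeR adjusted p = 0.0504) and passed without day 3 library 3 (0.99). Ifit1 had 5.24, 4.21 and 6.802 CPM in Q150X cells of day 3, against 1.32, 0.82 and 0.59 CPM (2.49 ± 0.40, edgeR adjusted p = 4.2e-04). In wild-type cells it had 6.72, 5.77 and 3.94 CPM, against 3.18, 1.62 and 4.57 CPM (0.73 ± 0.35, edgeR adjusted p = 0.17). The values of day 3 overlapped between genotypes, and those of homeostasis did not. Mx2 had 2.25, 2.92 and 2.699 CPM in Q150X cells, against 0.66, 0.92 and 0.44 CPM (1.87 ± 0.36), and 2.14, 2.85 and 1.66 CPM in wild-type cells, against 1.41, 1.46 and 1.43 CPM (0.55 ± 0.34). Irf7 (0.56 ± 0.28 in Q150X, 0.21 ± 0.28 in wild type) and Irf9 (-0.16 ± 0.21 and 0.01 ± 0.21) passed in neither genotype, and Stat2 passed in Q150X cells (0.65 ± 0.21), though not without homeostasis library 1 (0.55, adjusted p = 0.10) or 2 (0.67, adjusted p = 0.053) or day 3 library 3 (0.57, adjusted p = 0.11).

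Q150X library 3 of day 3 had the highest value of its group for 35 of the 39 members, and without it 15 members were called in Q150X cells. Of the 23 calls in Q150X cells, 15 held without each library in turn. Those of Stat2, Rsad2, Usp18, Ifi27l2a, Ifih1, Ddx58, Trim30a and Samd9l did not. In wild-type cells, leaving out homeostasis library 3 or day 3 library 1 left 4 members called. Of the 7 wild-type calls, 3 (Oas3, Zbp1 and Ifi207) held without each library in turn, and those of Mx1, Dhx58, Ifi204 and Lgals3bp did not. Macrophage markers, all 12 of which rose in both genotypes, summed to 218.9 to 546.1 CPM in Q150X cells of day 3 against 3.59 to 6.68 CPM at homeostasis, and to 188.6 to 363.1 CPM in wild-type cells against 8.53 to 18.9 CPM. Of the 10 endothelial markers 3 rose in Q150X cells (median log2 fold change 0.54) and 0 in wild-type cells (median -0.62). All 4 neutrophil markers tested rose in both genotypes, and 5 and 4 of 8 fibroblast markers did, Q150X first. Of the 7 pericyte and smooth muscle markers tested, 3 and 2 rose and 1 fell in each genotype. The part of these cells in the rise of the members was not tested. Cxcl10 rose in both genotypes (5.91 ± 0.72 in Q150X and 6.88 ± 0.89 in wild-type cells), and Ifnb1 had at most 0.14 CPM in any cardiomyocyte library.

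**Figure D5:**
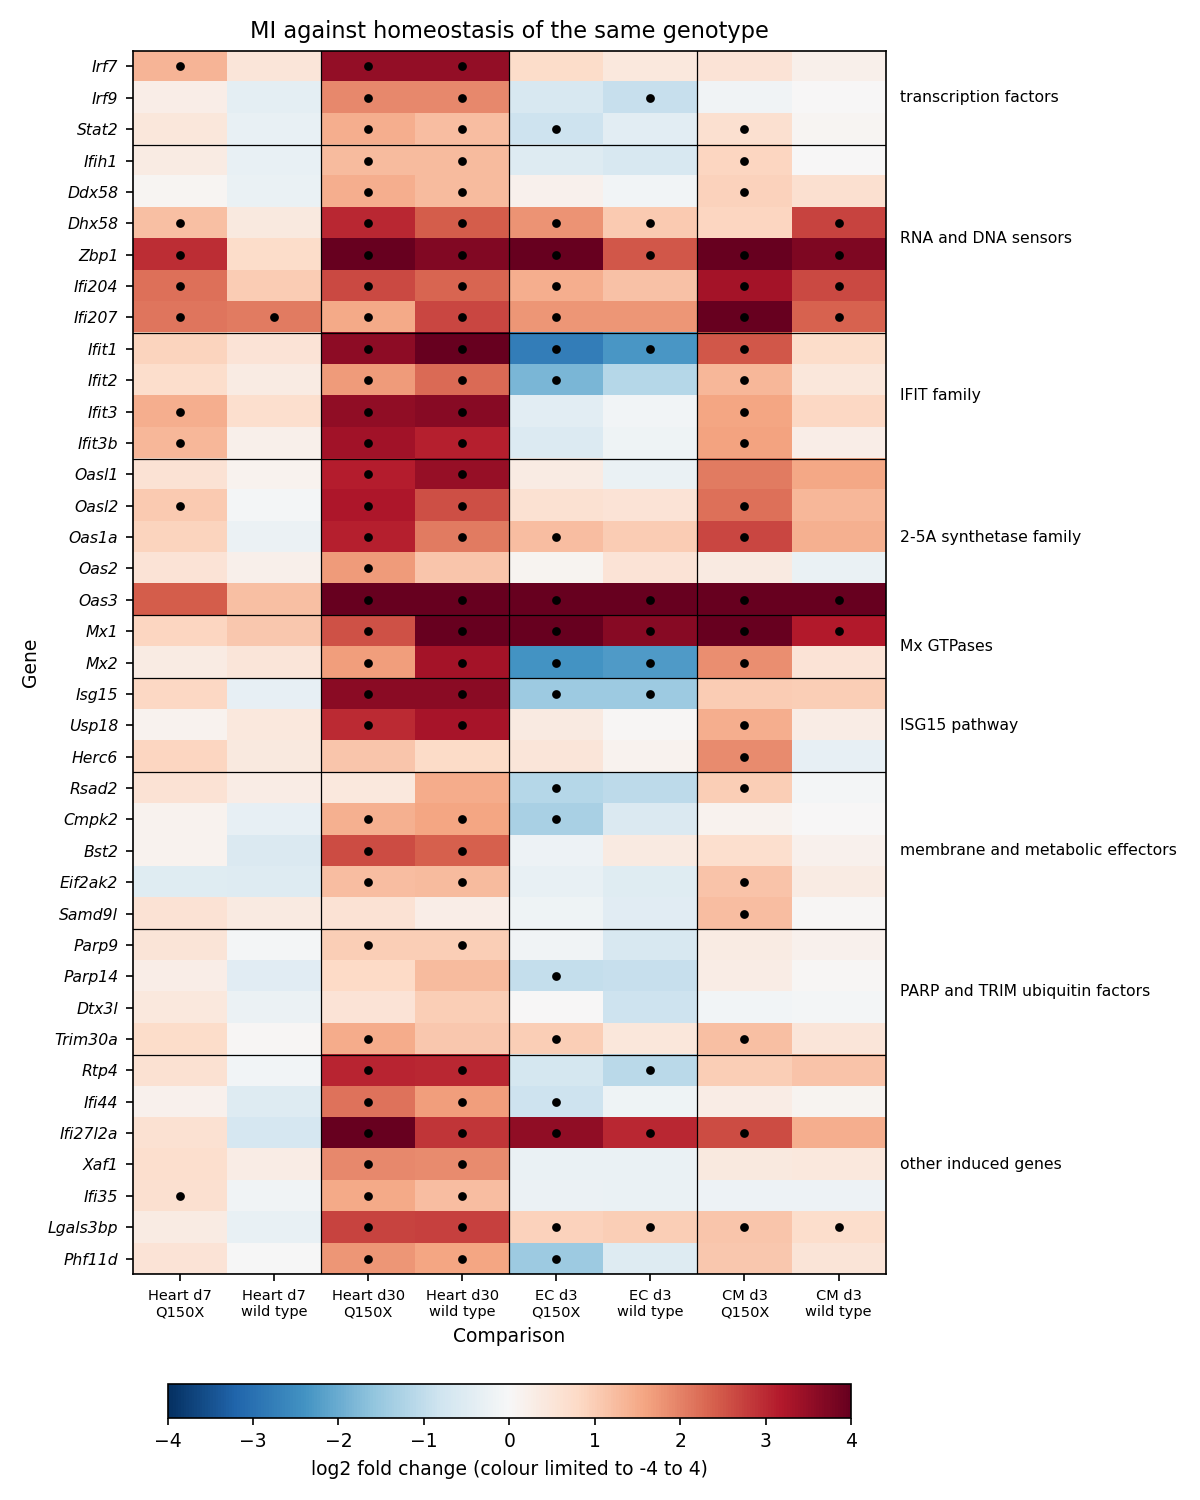
Log2 fold change of each of the 39 genes after MI against homeostasis of the same genotype, for whole hearts at days 7 and 30 and for endothelial cells (EC) and cardiomyocytes (CM) at day 3, with genes grouped by role and colours limited to -4 to 4. A black dot marks an adjusted p under 0.05: 34 and 32 genes in hearts of day 30, 20 and 11 in endothelial cells and 23 and 7 in cardiomyocytes, Q150X first.

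Between genotypes, no member passed edgeR's test in either cell fraction (0% of genes passed in each of these comparisons). DESeq2 called 5 members in cardiomyocytes at homeostasis and 1 in endothelial cells at day 3, voom called 0 in each, and both called 0 in the other genotype and interaction comparisons of the fractions. In cardiomyocytes at homeostasis 32 of the 39 differences, Q150X minus wild type, were below 0 with a median of -0.63 against 0.01 over all genes, and 14 members had an unadjusted p under 0.05. The shares of all genes below 0 or at an unadjusted p under 0.05 are not given, so these counts do not show an effect of genotype on the members. Without overlap, 11 members were lower in Q150X cells (8.49% of genes) and 1 was higher (share of genes not given). Ifit1 had 1.32, 0.82 and 0.59 CPM in Q150X cells, against 3.18, 1.62 and 4.57 CPM in wild-type cells (-1.77 ± 0.40, edgeR adjusted p = 0.14). Ifi207 differed by -2.30 ± 0.53 (edgeR adjusted p = 0.15), and Ifit2 by -0.94 ± 0.24 (edgeR adjusted p = 0.16). Irf7 (-0.22 ± 0.29), Irf9 (0.28 ± 0.21) and Stat2 (-0.64 ± 0.21) did not pass. Markers of other cells also had lower sums in the same libraries, with some overlap for the endothelial ones. Macrophage markers summed to 3.59 to 6.68 CPM in Q150X cells against 8.53 to 18.9 CPM in wild-type cells, and endothelial markers to 167.1 to 263.8 CPM against 252.6 to 586.3 CPM, and their part in these differences was not tested. At day 3 the median difference in cardiomyocytes was 0.07, and 0 members had an unadjusted p under 0.05. The interaction in cardiomyocytes had a median of 0.62 and 10 members at an unadjusted p under 0.05, with none called.

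In endothelial cells at homeostasis the median difference between genotypes was 0.05, and no member had an unadjusted p under 0.05. At day 3 it was 0.17, with 7 members at an unadjusted p under 0.05, and 8 members were higher in Q150X cells without overlap (23.7% of genes). Zbp1 had 28.4 and 72.1 CPM in Q150X cells of day 3, against 24.3 and 10.3 CPM in wild-type cells (1.38 ± 0.50, edgeR adjusted p = 0.17). Dhx58 had 22.2 and 32.4 CPM, against 16.1 and 9.65 CPM (0.96 ± 0.26, edgeR adjusted p = 0.14). The higher value was that of Q150X library 2 for both. In that library lymphocyte markers summed to 1319.5 CPM and endothelial markers to 730.3 CPM, and their part in these values was not tested. Without it Zbp1 differed by 0.71 (adjusted p = 0.47) and Dhx58 by 0.79 (adjusted p = 0.093), and the counts of members called were 0 between genotypes and 0 for the interaction, as with all libraries, where 1 member had an unadjusted p under 0.05 in the interaction. With library 1 left out in its place, 14 and 11 members were called. Each of these fits has 1 Q150X library of day 3, whose spread is taken from the other groups, so the counts describe that library.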

How the data were processed

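The deposited table holds raw counts per gene for 43 libraries of bulk RNA. Per the labels' protocols, RNA was extracted with Trizol and 2 µg per library went to Illumina sequencing. HISAT2, kallisto and the GRCm39 build are named in the submitters' processing notes. Of these tools the one behind the counts, the strand setting and the handling of reads shared between gene copies is not stated there. Close copies (Ifit3 and Ifit3b, the Oas1 genes, the p200 genes, the Trim30, Phf11 and Ifi27l2 genes) may therefore share reads, as may overlapping antisense genes.

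Symbols came from GENCODE annotation of GRCm38. CPM were computed from the deposited counts with TMM factors over all 43 libraries, and since CPM are not corrected for length, levels were compared only within a gene. Differences were tested with edgeR 4.0.16 in R 4.3.3 (quasi-likelihood F-test, robust, TMM, genes kept by filterByExpr with a minimum count of 10), in 1 fit per compartment and 1 over the 9 wild-type homeostasis libraries for endothelial cells against cardiomyocytes. P-values were adjusted by Benjamini-Hochberg over all genes of a fit, with a threshold of 0.05. Counts of members at an unadjusted p under 0.05 are given without the share of all genes and are not calls. The script was tested on simulated data. Alternatives used DESeq2 1.42.0, limma 3.58.1 voom, other scalings, no filter, only the compared groups, a replicate block, and leaving out each library or the libraries that stand apart. Counting intervals are exact at 95%, and PCR duplicates make them cover counting error only. No 2 of the 47 replicate pairs held identical values, and their differences were 9.17 to 1374.05 times counting noise.

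In each comparison the text names the members by a rule on size and test, adds regulators and members that describe a role, and gives pathway genes from fixed lists. The members and lists were chosen with earlier results of these data known. Same-numbered homeostasis hearts of the 2 genotypes deviated together (r of 0.704, 0.516 and 0.564 over genes, from the data), and a fit with that pairing called 0 members, as without it. No other groups had correlations over 0.1 in all pairs. Figures used matplotlib 3.10.9.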

Additional observations from a re-analysis of the deposited data

Results flagged for a closer look

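Among 117 tests of the highest or lowest library in heart groups of 4, 14 members had a library far from the rest. Chance alone flags about 1 in 20, but the share of all genes flagged in these groups is not given. The count is therefore not a result about the members. Of these, 12 were high in Q150X heart library 2 of day 7. That library was already known to stand apart and the members moved together in it, so these flags restate 1 observation and are not independent of each other. In CPM they were Stat2 at 59.63, Ifit1 at 17.66, Ifit3 at 38.65, Oas3 at 5.622, Ifi44 at 9.342, Dhx58 at 5.31, Zbp1 at 23.91, Parp9 at 52.22, Parp14 at 87.69, Herc6 at 16.1, Ifi204 at 58.67 and Phf11d at 21.33. Xaf1, an apoptosis-linked gene, was high in wild-type heart library 4 of day 7 at 10.6 CPM, the library with placental Tpbpa. Irf7 was low in Q150X heart library 4 of day 30 at 77.84 CPM.

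In 15 of 78 gene and genotype pairs, every cardiomyocyte library of day 3 lay above homeostasis while every endothelial library lay below it. This difference between cell fractions was not tested. The share of all genes with this joint pattern is not given, and each part of it was common over all genes, as stated above. The count therefore does not show that the members are unusual. The log2 fold change in cardiomyocytes exceeded that in endothelial cells by these amounts. In Q150X mice the excess was 1.48 for Stat2, 2.47 for Isg15, 5.24 for Ifit1, 3.14 for Ifit2, 2.16 for Ifit3b, 2.13 for Rsad2, 4.25 for Mx2, 1.72 for Rtp4, 1.37 for Ifih1, 1.44 for Eif2ak2 and 2.54 for Phf11d. In wild-type mice it was 2.43 for Isg15, 1.59 for Ifit2, 2.82 for Mx2 and 2.24 for Rtp4. Isg15, Ifit2, Mx2 and Rtp4 appear in both genotypes. Levels of these genes in cardiomyocytes were low, and endothelial libraries of day 3 differ from homeostasis in sex and macrophage markers as well.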

How the results depend on the processing

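Counts of members called in hearts of day 30 stayed within 1.5 times under every alternative (31 to 34 in Q150X, 23 to 37 in wild type), as did endothelial cells against cardiomyocytes (37 to 39) and the counts of 0 in the genotype and interaction comparisons not named below. Elsewhere the count depended on the processing, and the cause was not tested. In Q150X hearts of day 7 it was 9, but 4 without the filter, with only the compared groups or without the libraries that stand apart, and 3 to 13 without 1 library each. In wild-type hearts of day 7 it was 1, but 2 with only the compared groups or with voom. The genotype comparison of hearts at day 30 had 1 call, Ifi207, when DESeq2 or voom was used or the libraries that stand apart were left out. Wild-type endothelial cells had 11 calls, but 24 with only the compared groups, 18 with DESeq2, 27 with voom, 26 when the libraries that stand apart were left out, and 5 to 7 without 1 library each. Q150X endothelial cells had 20, but 8 with only the compared groups, 5 with voom and 12 to 23 without 1 library each. Between genotypes in endothelial cells of day 3, DESeq2 gave 1, and leaving out 1 library gave 0 to 14, and 0 to 11 for the interaction, in fits where the lone Q150X library of day 3 is assumed to vary like the other groups. Wild-type cardiomyocytes had 7, but 14 with library size alone, 11 without the filter, with DESeq2 or with voom, and 4 to 9 without 1 library each. Q150X cardiomyocytes had 23, and 15 to 23 without 1 library each. Between genotypes in homeostasis cardiomyocytes the count of 0 was 7 without the filter and 5 with DESeq2, and the cardiomyocyte interaction had 2 without the filter.

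Apart from homeostasis hearts, same-numbered libraries share only a number. A replicate block gave 5 calls in wild-type endothelial cells and moved no other count by over 1.5 times. Leaving out Q150X endothelial library 1 or 2 of day 3 moved Ifi207 after MI between -0.13 and 2.53, and the genotype differences of Ifnb1 between -7.23 and 1.73 and of Cxcl10 between -2.08 and 1.09, and the Cxcl10 interaction between -2.04 and 1.12. Scaling by library size alone moved the median log2 fold change of all genes by 0.221 and 0.266 in Q150X hearts of days 7 and 30, by 0.272 in Q150X and 0.309 in wild-type cardiomyocytes, by -0.155 in wild-type endothelial cells, and by -0.106 and 0.162 between genotypes in hearts at homeostasis and day 30. The share of calls over all genes that were higher was then 81.3% against 52.4% in Q150X hearts of day 30, 77.4% against 52.9% at day 7, 90.4% against 55.1% in Q150X and 94.7% against 58.4% in wild-type cardiomyocytes, 41.6% against 55.3% in Q150X endothelial cells, 52.2% against 34.2% between genotypes at day 30 and 79.9% against 53.4% for endothelial cells against cardiomyocytes. No member that passed changed direction with the scaling. Depth limits the members near 0 in cardiomyocytes and homeostasis hearts, such as Oas3, Mx1 and Zbp1.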

Other observations

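Of the 7 interferon-induced chemokines of the fixed list, 1 passed between genotypes at day 30. Ccl2, which draws monocytes, had 11.3, 14.9, 9.49 and 10.9 CPM in Q150X hearts of day 30, against 118, 24.6 and 163 CPM in wild-type hearts (log2 fold change -3.13 ± 0.65 (SE), edgeR adjusted p = 0.040). The genotypes did not overlap. The call was lost without wild-type library 1 or 3 or any 1 of the 4 Q150X libraries, and with library size alone, without the filter, with only the compared groups or with a replicate block, and DESeq2 and voom made it too. Its neighbour Ccl7 had 9.16, 11.7, 8.55 and 8.41 CPM in Q150X hearts, against 84.7, 21.8 and 120.2 CPM in wild-type hearts (-2.99 ± 0.72, edgeR adjusted p = 0.076). Cxcl10 differed by -4.02 ± 1.20 (edgeR adjusted p = 0.14). Rsad2 and Mx1 were highest in the wild-type library that was also highest for Ccl2 and Cxcl10, library 3. These genes were chosen after their values were seen.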
